A study of Mus musculus with 4 samples.

Results

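The genes described here encode the proteins that load the replicative helicase onto DNA, switch it on, and copy both strands at the fork. They were chosen by name, as 59 genes of origin licensing, origin firing, the fork and Okazaki fragment synthesis, and all 59 were found among the 24411 genes of the deposited tables. The rule for choosing them used no measured value, but earlier results of these data were known when they were chosen. They fell into 16 licensing genes, 16 firing genes, 17 fork genes and 9 genes of Okazaki fragment synthesis, with Mcm8, a relative of the helicase subunits that is not part of their ring, kept apart.

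The study measured RNA in mouse hematopoietic stem cells, the blood-forming cells of the marrow, with and without Dis3, a nuclease of the RNA exosome. Wild-type marrow was Dis3fl/fl with no Cre transgene, and Dis3-/- marrow was Dis3fl/fl;Mx-Cre, both C57BL/6, with 2 libraries a genotype. CD45.1 recipients, lethally irradiated, were given marrow of one or the other genotype, and 4 weeks later 300 µg of pIpC was injected on day 0 and again on day 2. pIpC, a double-stranded RNA analogue, evokes interferon and so activates the Mx promoter that drives Cre, in many cell types of the marrow. That wild-type grafts also received it is read from protocol text common to both genotypes, and the presence of Cre cannot be told apart from the loss of Dis3. On day 4, 100 cells per library were sorted by the presence of EPCR and CD150 and the absence of CD48 and lineage markers, and full-length total RNA libraries were made by RamDA-seq. The series states 2 mice, without tying libraries to animals, so p-values measure the spread between these samples only.

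The libraries held 6085367 to 6818535 expected counts, and 12244 genes, all 59 replication genes among them, passed the filter on low counts. Levels are given as CPM (counts scaled to a common library size), as TPM where genes are compared with each other, and differences as log2 fold changes of Dis3-/- over wild type with their standard error. A gene is called where the adjusted p of edgeR's quasi-likelihood test over all 12244 genes is under 0.05. Dis3 itself was at 55.9 and 53.2 CPM in wild type and at 23.6 and 30.2 CPM in Dis3-/-, and its counts fell by 1.02 ± 0.14 on the log2 scale (edgeR adjusted p = 0.000258). Of the genes for the sorted surface proteins, Procr (EPCR) was at 40.1 to 46.0 CPM, Slamf1 (CD150) at 18.9 to 30.4 CPM and Cd48 at 13.8 to 24.1 CPM. Ctsg, Car1, Cd3e and Ms4a1, which mark granule-bearing, red, T and B cells, were at 0 in all 4 libraries, where a count of 0 allows up to 0.432 to 0.505 CPM.

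Eukaryotic chromosomes are copied once per cell cycle because loading and firing of the helicase are kept apart in time. In G1 the origin recognition complex, Cdc6 and Cdt1 load double rings of Mcm2 to Mcm7 on DNA. In S phase the Dbf4-dependent and cyclin-dependent kinases, with Ticrr, Topbp1 and others, add Cdc45 and GINS to make the active helicase, and polymerases epsilon, delta and alpha then build the new strands. Most hematopoietic stem cells rest outside the cycle, and resting cells generally hold little of this machinery. The wild-type libraries here did hold such transcripts, with Mcm6 at 455 and 451 CPM and the cycling marker Mki67 at 441 and 495 CPM.

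Transcripts of the replication machinery were more abundant in Dis3-/- stem cells. The summed level of the 59 genes was 4736 and 4601 CPM in wild type and 7044 and 6547 CPM in Dis3-/-, a 1.46-fold rise in the mean, and the genotypes did not overlap. Singly, 42 of 59 rose (71.2%) and 0 fell, where 12.7% of all tested genes were called higher, 10.2% lower and 23.0% in either direction. At an unadjusted p under 0.05 the count was 50, all with positive fold changes, against 4362 of all 12244 tested genes in either direction. Their median log2 fold change was 0.62, against -0.0027 over all tested genes, and ran from -0.19 for Orc3 to 1.47 for Ccne1. Both Dis3-/- libraries lay above both wild-type libraries for 53 genes (89.8%, against 31.9% of all tested genes) and below for 1, Orc3 (30.5% of all tested genes). More cells in S phase and more RNA per cell cannot be told apart in libraries of 100 pooled cells.

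**Figure D1:**
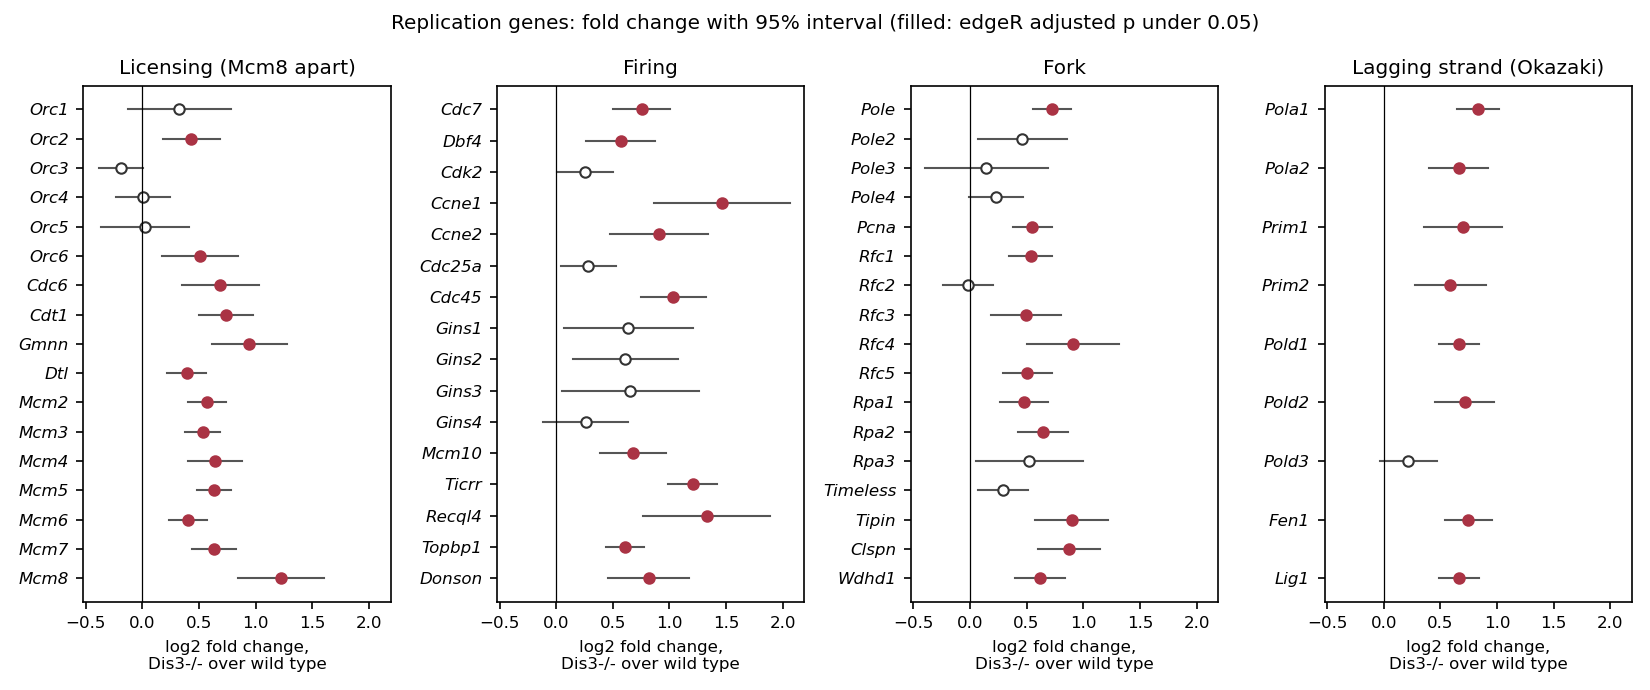
Log2 fold change of each replication gene, Dis3-/- over wild type, with its 95% interval, by role. Filled points are the 42 genes called higher, and Orc3 and Rfc2 are the 2 with a value below 0, to which Orc4 and Orc5 are added on the TPM scale.

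The count called higher was 38 by DESeq2, 40 with limma on TPM values of the same genes, and 23 with limma on unfiltered TPM values. In that last setting 19 genes lost their call: Orc2, Orc6, Cdc6, Dtl, Mcm4, Mcm6, Dbf4, Ccne2, Mcm10, Recql4, Donson, Rfc1, Rpa1, Clspn, Wdhd1, Pola2, Prim1, Prim2 and Pold2. On the TPM scale the median of all tested genes was -0.11, and relative to it the replication genes' median was 0.60, against 0.62 by edgeR. Calls over all genes moved from 1561 higher and 1250 lower by edgeR to 1076 higher and 1480 lower on TPM.

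**Figure D2:**
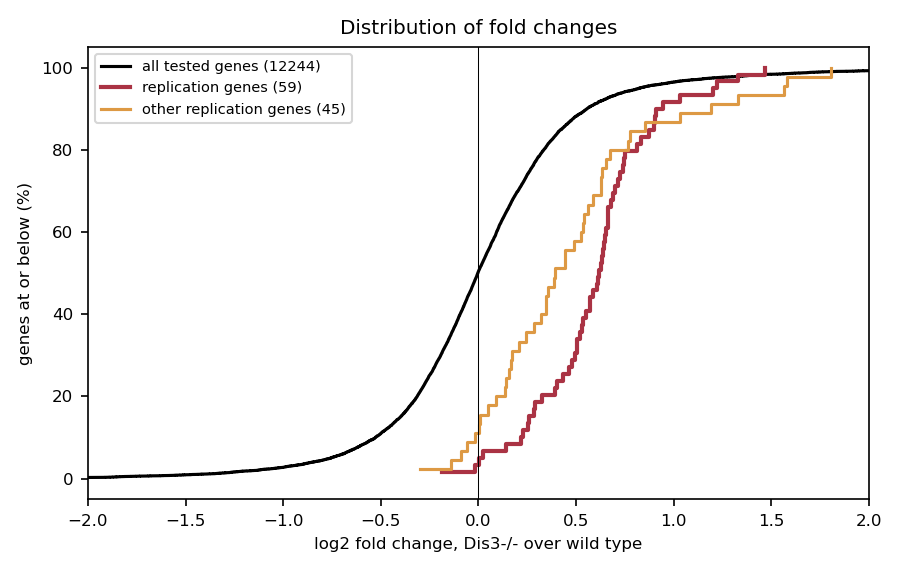
Share of genes at or below each log2 fold change, for all 12244 tested genes, the 59 replication genes and 45 other replication genes. The curve of the 59 genes lies to the right of that of all genes, with medians of 0.62 and -0.0027.

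Markers of cycling cells and of other cells moved with genotype as well. Of 6 cycling markers (Mki67, Top2a, Ccnb1, Ccna2, Cdk1 and Plk1) all 6 rose, with a summed level of 660 and 752 CPM in wild type and 1578 and 1630 CPM in Dis3-/-. Their median log2 fold change was 1.55. Of 9 stem cell markers, 3 fell (Kit, Hlf and Fgd5) and 1, Ly6a, rose. The other 5 were not called, with log2 fold changes from -0.29 (Tek) to 0.04 (Procr). The sum went from 2806 and 2462 CPM to 2082 and 2053 CPM, with Kit and Hlf its largest parts (wild-type means of 1041 and 905 CPM). Of 7 progenitor and myeloid markers 4 were tested and 3 fell, with sums of 632 and 641 against 459 and 416 CPM. Of 7 erythroid and megakaryocyte markers 4 were tested and Gata1 fell, with sums of 72.2 and 83.5 against 66.8 and 37.2 CPM. Of 8 mature lymphoid and monocyte markers that were measured, 3 were tested and Itgam fell, with sums of 272 and 317 against 274 and 247 CPM. The part of these shifts in the rise of the replication genes was not tested.

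The promoters of many of these genes carried a word bound by E2F, the transcription factor family known for switching on replication genes as cells leave G1. The RefSeq windows of GRCm38.p6 (mm10), from 250 bases before to 50 after a transcript start, were available for 48 of the 59 genes. Gmnn, Mcm4, Ccne2, Gins1, Gins2, Gins4, Recql4, Pole, Rfc2, Tipin and Prim2 had none. The words TTTCCCGC, TTTCGCGC, TTTGCCGC and TTTGGCGC were searched on both strands, where 2 words can overlap. The stretches below show them in genes that rose and in genes that were not called, each 30 bases, read 5′ to 3′ along the gene's strand. Capitals mark the word, which appears as GCGGGAAA, GCGCGAAA or GCGCCAAA when it lies on the opposite strand.
Mcm6 at chr1:128359797-128359826, minus strand: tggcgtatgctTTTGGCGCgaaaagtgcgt
Mcm6 at chr1:128359734-128359763, minus strand: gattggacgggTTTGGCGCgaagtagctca
Mcm5 at chr8:75109345-75109374, plus strand: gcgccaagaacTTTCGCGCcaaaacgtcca
Mcm7 at chr5:138172030-138172059, minus strand: aatttcgaaccGCGGGAAAcagggtgtcca
Cdc6 at chr11:98908002-98908031, plus strand: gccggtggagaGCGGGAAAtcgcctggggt
Topbp1 at chr9:103305187-103305216, plus strand: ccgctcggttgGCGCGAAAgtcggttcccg
Pola1 at chrX:93632275-93632304, minus strand: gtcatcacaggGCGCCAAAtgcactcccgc
Orc1 at chr4:108579416-108579445, plus strand: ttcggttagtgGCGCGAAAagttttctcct
Orc3 at chr4:34614965-34614994, minus strand: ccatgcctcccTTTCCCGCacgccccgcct
Cdc25a at chr9:109875501-109875530, plus strand: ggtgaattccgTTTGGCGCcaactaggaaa
Cdk2 at chr10:128705173-128705202, minus strand: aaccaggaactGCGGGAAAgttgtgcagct

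The first 7 stretches belong to genes that rose and the last 4, Orc1, Orc3, Cdc25a and Cdk2, to genes that were not called. Each lies before the transcript start of its own window. Those of Mcm7, Cdc6, Topbp1, Pola1 and Orc1 still lie inside the RefSeq bounds of the gene, and that of Cdc25a crosses them. The stretches of Mcm7, Topbp1, Orc1, Orc3 and Cdk2 touch an annotated exon of that gene or another. In the first Mcm6 stretch and in the Mcm5 stretch a second word on the opposite strand overlaps the one in capitals by the shared GCGC. At least 1 E2F word lay in the windows of 22 of 48 replication genes (45.8%), against 4.8% of the 9331 tested genes with a window and 2.6% of all 27025 genes with one. The word was in 14 of 35 genes that rose (40.0%) and in 8 of 13 that were not called (61.5%). By role it was in 9 of 14 licensing, 4 of 11 firing, 4 of 14 fork and 4 of 8 Okazaki genes. CCAAT was in 56.2% of the replication genes and 42.9% of tested genes, and TTTGAA or TTCGAA, the word of the cell cycle homology region, in 18.8% and 16.2%. A match describes letters in a window and does not show that a factor binds there.

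**Figure D3:**
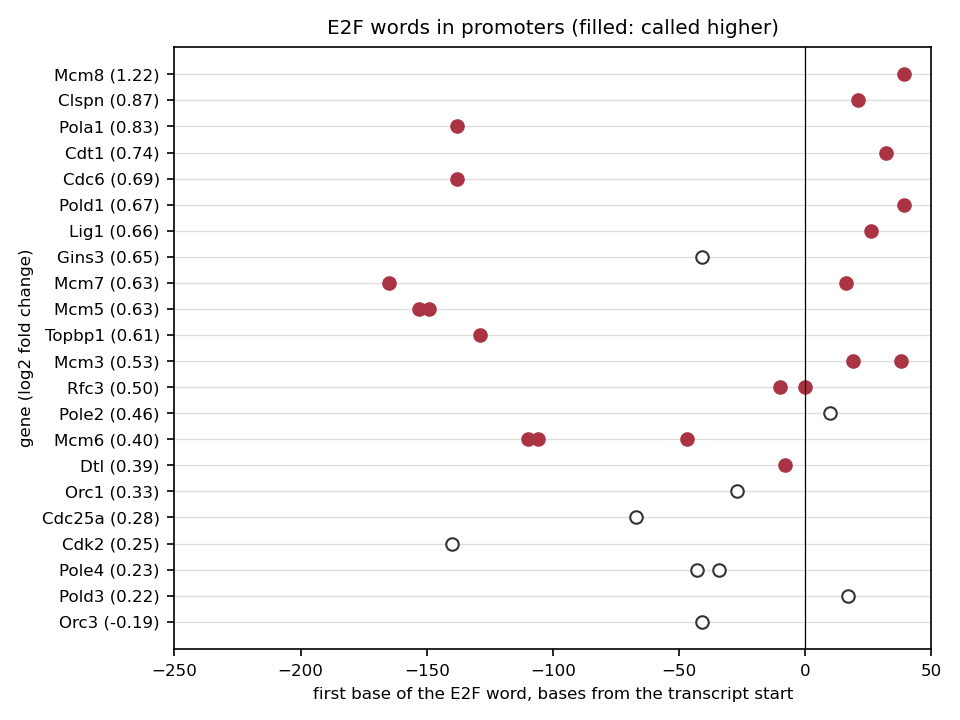
Position of the first base of each E2F word relative to the transcript start in the 22 replication genes that have one, with each gene's log2 fold change in brackets. Of 29 words, counted per window, 18 end before the start, and both genes that rose (filled) and genes that were not called (open) carry them.

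Among licensing genes, 12 of 16 rose, against 12.7% of all tested genes, and their median log2 fold change was 0.52. All 6 subunits of the helicase ring, both loading factors and both licensing regulators rose. Of the 6 subunits of the origin recognition complex, 2 rose. The summed level of the ring was 1746 and 1673 CPM in wild type and 2650 and 2346 CPM in Dis3-/-. The summed level of the origin recognition complex was 317 and 349 CPM in wild type and 356 and 332 CPM in Dis3-/-, with the genotypes overlapping. The difference between the complexes was not tested.

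Each ring subunit was higher in both Dis3-/- libraries than in either wild-type library. Mcm5, a ring subunit at one side of the gate that opens around DNA, was at 295 and 294 CPM in wild type and 467 and 445 CPM in Dis3-/- (0.63 ± 0.07, edgeR adjusted p = 4.64e-05). Mcm2, its partner at that gate, was at 272 and 250 against 402 and 374 CPM (0.57 ± 0.08, adjusted p = 0.000192). Mcm3, the subunit contacted during loading, was at 340 and 328 against 502 and 463 CPM (0.53 ± 0.07, adjusted p = 0.000195). These 3 had narrow replicate spreads beside their differences. Mcm7, a subunit of the catalytic core, was at 188 and 180 against 309 and 262 CPM (0.63 ± 0.09, adjusted p = 0.00025). Mcm4, a main substrate of the Dbf4-dependent kinase, was at 196 and 171 against 325 and 250 CPM (0.64 ± 0.11, adjusted p = 0.00114). Mcm6, whose promoter held 3 E2F words, was at 455 and 451 against 646 and 553 CPM (0.40 ± 0.08, adjusted p = 0.00222). The first Dis3-/- library was the higher of its pair for all 6 subunits. Per length, the order of the subunits by mean TPM was Mcm6, Mcm3, Mcm5, Mcm7, Mcm2 and Mcm4 in both genotypes, and their summed TPM went from 1425 and 1345 to 1957 and 1778. Mcm7 and Mcm2 were close in TPM, at 197 and 185 against 199 and 180 in wild type, so their order there lies within the spread.

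**Figure D4:**
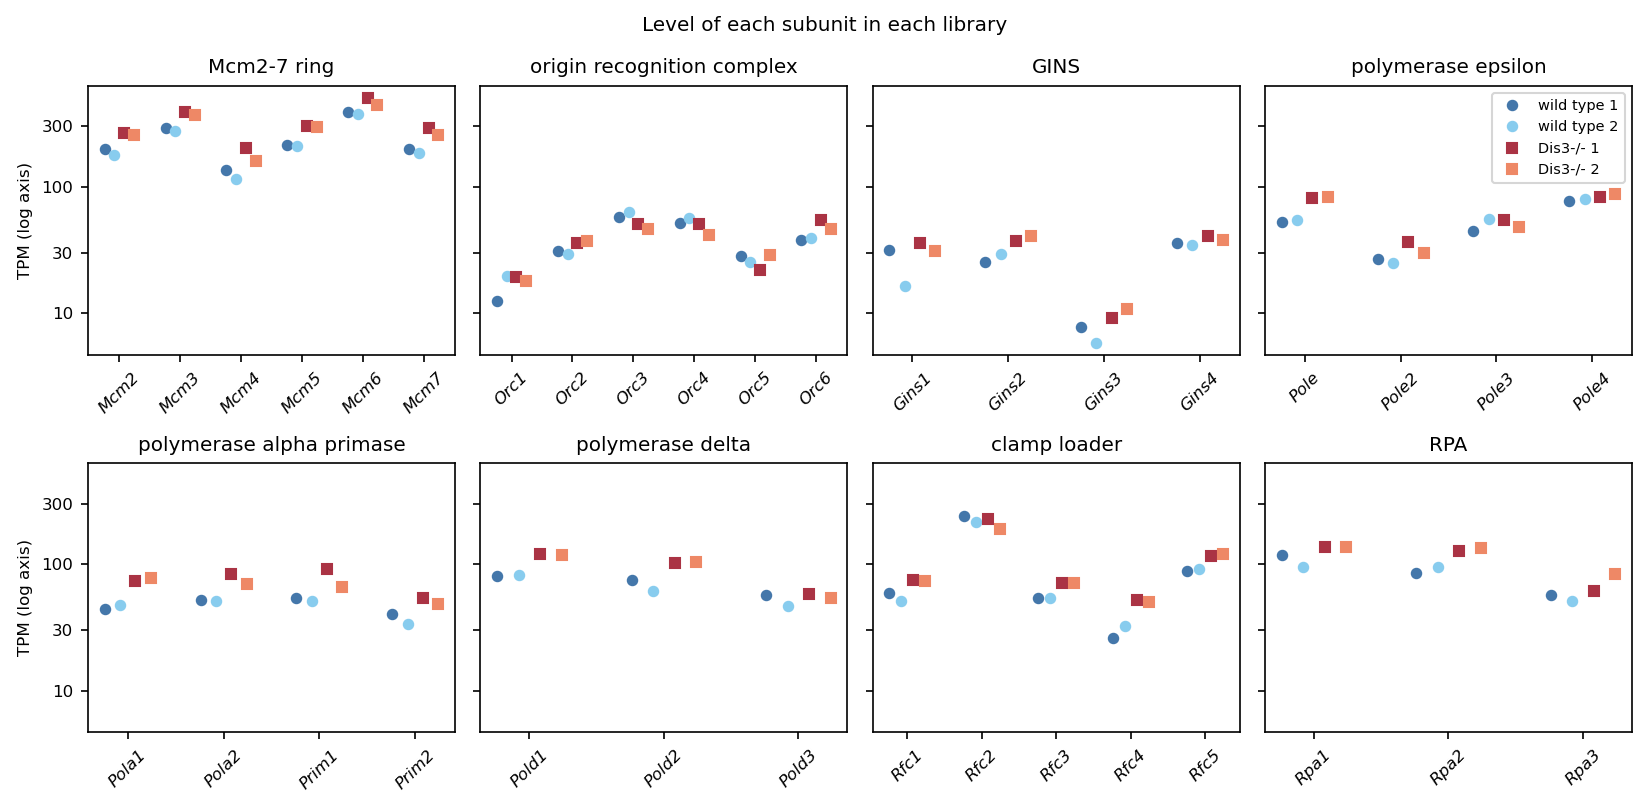
TPM of each subunit of 8 replication complexes in each library, on a log axis. Mcm2 to Mcm7 and the polymerase alpha primase subunits are higher in both Dis3-/- libraries, while in the origin recognition complex Orc2 and Orc6 are higher in both, Orc3 and Orc4 lower in both, and Orc1 and Orc5 overlap.

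In the origin recognition complex, which marks the sites where rings are loaded, Orc2 (0.43 ± 0.12, edgeR adjusted p = 0.0164) and Orc6 (0.51 ± 0.16, adjusted p = 0.0309) rose. Both calls were lost with DESeq2 (adjusted p = 0.0881 and 0.14) and on TPM (0.14 and 0.0582). Orc4, the licensing gene with the largest p, was at 61.4 and 68.6 CPM in wild type and 67.5 and 62.7 CPM in Dis3-/- (0.00 ± 0.11, 95% interval -0.24 to 0.24). Orc3, a core subunit, was at 150 and 167 CPM against 147 and 131 CPM (-0.19 ± 0.09, edgeR adjusted p = 0.158). Both Dis3-/- libraries were below both wild-type libraries for Orc3, and the interval of -0.38 to 0.01 reached just past 0. Orc5 stood at 0.02 ± 0.18 and Orc1, the subunit that cycling cells make anew, at 0.33 ± 0.21. Orc1 was at 15.3 and 24.6 CPM in wild type and 26.3 and 23.6 CPM in Dis3-/-, and without the second wild-type library it was called at 0.70 (adjusted p = 0.0309), while without the first it was at 0.019 (adjusted p = 0.963). The call of Orc2 was lost without wild-type library 1 (adjusted p = 0.0502), wild-type library 2 (0.0643) or Dis3-/- library 2 (0.0535), and that of Orc6 without wild-type library 1 (adjusted p = 0.124) or Dis3-/- library 1 (0.208). Exons of Orc2 share 29.8% of their bases with Nif3l1 on the other strand, and whether strand was used in the counting is not stated in the labels.

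Loaders and regulators of licensing rose together. Cdt1, which brings the ring to the origin, stood at 0.74 ± 0.11 and Cdc6, the ATPase that loads it, at 0.69 ± 0.16 on the log2 scale (edgeR adjusted p = 0.000393 and 0.00629). Cdc6 was at 26.1 and 27.9 CPM in wild type and 37.5 and 49.4 CPM in Dis3-/-, and its call was lost without the second Dis3-/- library (0.48, adjusted p = 0.0812) and on TPM (adjusted p = 0.0842). Gmnn, which encodes geminin, the inhibitor that holds Cdt1 after G1, rose by 0.95 ± 0.15, the most of any licensing gene. Dtl, the substrate receptor that directs Cdt1 for destruction in S phase, rose by 0.39 ± 0.08 from a higher level of 197 and 185 CPM. Genes that promote licensing and genes that restrain it were thus both among those that rose.

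Among firing genes, 10 of 16 rose, against 12.7% of all tested genes, and the median log2 fold change was 0.67. All 16 had both Dis3-/- libraries above both wild-type libraries, against 31.9% of all tested genes. All 5 assembly factors rose. Ticrr, which carries the cyclin-dependent kinase signal to Topbp1, was at 52.3 and 47.8 CPM in wild type and 112 and 119 CPM in Dis3-/- (1.20 ± 0.10, edgeR adjusted p = 6.14e-06), the smallest p of the 59 genes. Its locus is chr7:79660196-79698148 in GRCm38.p6. Topbp1, the scaffold that Ticrr binds, was at 215 and 205 against 332 and 308 CPM (0.61 ± 0.08, adjusted p = 0.000117). Recql4, a helicase needed to start replication, rose by 1.33 ± 0.26 from a low 5.62 and 10.2 CPM. Donson rose by 0.82 ± 0.16 and Mcm10, which helps the helicase unwind the origin, by 0.68 ± 0.14. Donson shares 9.2% of its exon bases with Atp5o, which lies on the same strand and was called higher. Recql4 shares 9.7% with Mfsd3, which lies on the other strand and was not called.

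The active helicase adds Cdc45 and the 4 GINS subunits to the ring, and of these 5 genes Cdc45 rose. Cdc45 was at 26.8 and 24.1 CPM in wild type and 53.7 and 50.8 CPM in Dis3-/- (1.03 ± 0.13, edgeR adjusted p = 0.000133). Gins1, Gins2 and Gins3 had positive values of similar size to each other, 0.64 ± 0.27, 0.61 ± 0.21 and 0.65 ± 0.28, with adjusted p of 0.1, 0.0551 and 0.112. Gins4, the firing gene with the largest p, was at 18.7 and 18.3 CPM against 23.2 and 21.1 CPM (0.26 ± 0.17, interval -0.12 to 0.64). Thus no GINS gene passed the test, and their intervals still allow rises of the size seen for the ring. Gins1 was called without the first wild-type library (1.05, adjusted p = 0.0274) and was at 0.33 without the second (adjusted p = 0.487). Gins2 was called without the filter on low counts (adjusted p = 0.0446). Gins2 shares 67.3% of its exon bases with Gse1, which lies on the other strand and was called lower.

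Of the 6 kinase genes and their partners 4 rose. Cdc7, the kinase that phosphorylates the ring, was at 39.9 and 45.6 CPM in wild type and 72.0 and 71.9 CPM in Dis3-/- (0.75 ± 0.12, edgeR adjusted p = 0.000488). Its activator Dbf4 rose by 0.57 ± 0.14, a call lost without the first wild-type library (adjusted p = 0.0555) and with DESeq2 (adjusted p = 0.0624). Ccne1 and Ccne2 encode the E cyclins that drive Cdk2 at the start of S phase. Ccne1 went from 4.18 and 5.4 CPM to 13.6 and 12.8 CPM, a 2.76-fold rise (1.47 ± 0.28, edgeR adjusted p = 0.00213) that was the largest of the 59 genes, at a low level. Ccne2 rose by 0.91 ± 0.20, and it shares 17.4% of its exon bases with Ints8 on the other strand. Cdk2 itself stood at 0.25 ± 0.12 (adjusted p = 0.129) and Cdc25a, the phosphatase that activates it, at 0.28 ± 0.11 (adjusted p = 0.0856). Cdk2 was called without the first wild-type library (0.41, adjusted p = 0.0421) and was at 0.12 without the second (adjusted p = 0.611).

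Among fork genes, 11 of 17 rose, against 12.7% of all tested genes, and the median log2 fold change was 0.52. Pole, the catalytic subunit of the leading strand polymerase epsilon, was at 156 and 163 CPM in wild type and 266 and 263 CPM in Dis3-/- (0.73 ± 0.08, edgeR adjusted p = 3.41e-05). The other 3 subunits of that polymerase were not called: Pole2 at 0.46 ± 0.18, Pole4 at 0.23 ± 0.11 and Pole3 at 0.14 ± 0.25. Pole3 and Pole4 have histone folds, and Pole3 overlapped between genotypes, with 8.79 and 11 CPM against 11.8 and 10.0 CPM. The summed TPM of the polymerase went from 202 and 215 to 256 and 249.

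The sliding clamp, the RPA trimer that coats single strands, and the fork protection genes were mostly higher. Pcna, the clamp that tethers polymerases, was at 150 and 145 CPM in wild type and 222 and 210 CPM in Dis3-/- (0.55 ± 0.08, edgeR adjusted p = 0.000325). Rpa2 was at 58.8 and 66.4 against 96.6 and 99.3 CPM (0.65 ± 0.10, adjusted p = 0.000579). Clspn, which encodes the checkpoint adaptor claspin, was at 30.7 and 29.5 against 54.0 and 56.4 CPM (0.87 ± 0.13, adjusted p = 0.000298). In each of these 3 genes both Dis3-/- libraries were above both wild-type libraries. Rpa1 rose by 0.48 ± 0.10, Tipin by 0.90 ± 0.15 and Wdhd1, which links the helicase to polymerase alpha, by 0.62 ± 0.10. Rpa3 stood at 0.52 ± 0.22 (adjusted p = 0.103), and Timeless, the partner of Tipin, at 0.29 ± 0.10 (adjusted p = 0.0545). Timeless was at 0.21 without the first Dis3-/- library (adjusted p = 0.276), and it was called without the second (0.37, adjusted p = 0.0377) and without the filter on low counts (adjusted p = 0.0472).

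Of the clamp loader, a ring of 5 subunits that opens Pcna, 4 subunits were called. Rfc1 (0.54 ± 0.09), Rfc3 (0.50 ± 0.14), Rfc4 (0.91 ± 0.19) and Rfc5 (0.51 ± 0.10) rose. Rfc2, the fork gene with the largest p, was at 139 and 128 CPM in wild type and 145 and 119 CPM in Dis3-/- (-0.02 ± 0.10, edgeR adjusted p = 0.922). Its 2 genotypes overlapped and its interval of -0.24 to 0.20 lies below the fold changes of the other 4 subunits. Per length Rfc2 was the highest of the 5 in every library, and the ratio of the highest to the lowest subunit in TPM was 9.25 and 6.62 in wild type, against 4.37 and 3.76 in Dis3-/-. The call of Rfc3 was lost with DESeq2 (adjusted p = 0.137) and when any of the 4 libraries was left out, with p of 0.064 to 0.0885. On the other strand, Rfc2 shares 15.1% of its exon bases with Lat2, Rfc4 12.7% with Eif4a2 and Rfc5 10.7% with Wsb2.

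Genes of Okazaki fragment synthesis, the short pieces of the lagging strand, were called higher in 8 of 9 cases, against 12.7% of all tested genes. The median log2 fold change of these 9 was 0.67. All 4 subunits of polymerase alpha primase, which lays down each primer, rose. Pola1, its polymerase subunit, was at 97.5 and 106 CPM in wild type and 177 and 184 CPM in Dis3-/- (0.83 ± 0.09, edgeR adjusted p = 2.39e-05). Pola2 stood at 0.66 ± 0.12, Prim1 at 0.70 ± 0.16 and Prim2 at 0.59 ± 0.15. The call of Prim1 was lost without the first Dis3-/- library (0.43, adjusted p = 0.0798) and that of Prim2 without the second wild-type library (0.47, adjusted p = 0.0662). In TPM the 4 subunits summed to 191 and 183 in wild type, against 302 and 261 in Dis3-/-.

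Of the 5 genes for extending and joining the fragments, 4 rose. Pold1, the catalytic subunit of polymerase delta, was at 112 and 115 CPM in wild type and 185 and 176 CPM in Dis3-/- (0.67 ± 0.08, edgeR adjusted p = 9.79e-05). Fen1, the nuclease that trims displaced flaps, was at 60.2 and 62.4 against 103 and 103 CPM (0.75 ± 0.10, adjusted p = 0.000128). Lig1, the ligase that seals the nicks, was at 119 and 114 against 190 and 180 CPM (0.66 ± 0.08, adjusted p = 0.000103). The genotypes did not overlap in any of the 3. Fen1 shares 78.8% of its exon bases with Gm10143, which lies on the other strand and is absent from the deposited tables. Pold2 rose by 0.71 ± 0.12. Pold3, the gene with the largest p of this role, was at 69.2 and 57.8 CPM against 77.6 and 70.4 CPM (0.22 ± 0.12, adjusted p = 0.199), with the lowest Dis3-/- library just above the highest wild-type one.

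Mcm8, which with Mcm9 forms a helicase used in recombination repair, was at 11.8 and 13.2 CPM in wild type and 29.3 and 29.1 CPM in Dis3-/- (1.22 ± 0.18, edgeR adjusted p = 0.000314). Both Dis3-/- libraries were far above wild type, and Mcm9 was at 0.21 ± 0.13 (adjusted p = 0.278). Across the 59 genes, the log2 fold change tended to be larger where the wild-type level was lower (Pearson r = -0.345, Spearman rho = -0.294). The points share the same 4 libraries, and wild-type counts enter both axes. Genes that were not called had a median wild-type level of 22.1 CPM and a median standard error of 0.17, against 47.9 CPM and 0.11 for those that rose.

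**Figure D5:**
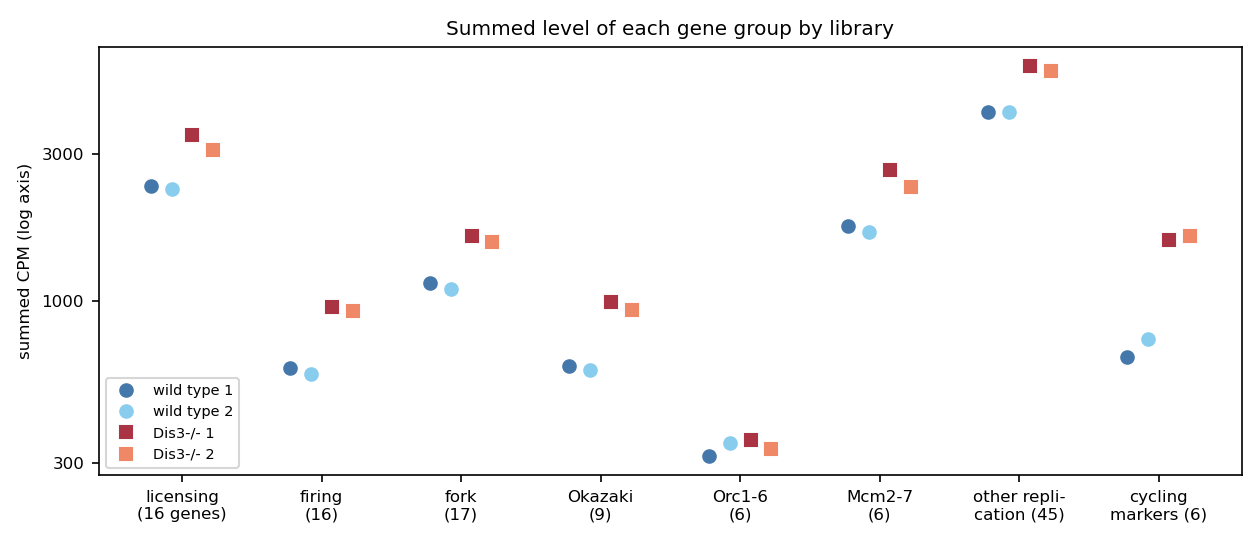
Summed CPM of each gene group in each library, on a log axis. Every group but the origin recognition complex (Orc1 to Orc6) is higher in both Dis3-/- libraries.

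A second list of 45 genes that act at origins and forks was tested in the same fit. By edgeR 24 rose (53.3%) and 0 fell, where 12.7% of all tested genes were called higher and 10.2% lower. At an unadjusted p under 0.05 the count was 28 (4362 of the 12244 tested genes were), and the median log2 fold change was 0.40. Top2a, the topoisomerase that untangles sister chromatids, had the smallest p, at 144 and 155 CPM in wild type and 433 and 452 CPM in Dis3-/- (1.57 ± 0.08, edgeR adjusted p = 4.31e-08). Ccna2, the S phase cyclin, was at 26.2 and 35.6 against 107 and 109 CPM (1.81 ± 0.13, adjusted p = 1.82e-06). Pclaf, a Pcna partner, was at 19.6 and 22.5 against 66.3 and 59.6 CPM (1.58 ± 0.14, adjusted p = 6.80e-06). These 3 differences exceeded those of all 59 licensing and replisome genes in log2 fold change. Top2a and Ccna2 are also among the cycling markers above, so the lists share these genes. With negative values, Pold4, the small subunit of polymerase delta, stood at -0.30 ± 0.23 (adjusted p = 0.38), Rad17 at -0.14 ± 0.16 (adjusted p = 0.571) and Cul4a at -0.09 ± 0.08 (adjusted p = 0.474). On TPM, Pold4 was called lower (-0.48, adjusted p = 0.0206), and 13 of the 45 genes were called higher.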

How the data were processed

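RNA was measured by RamDA-seq with Nextera XT libraries, per the labels' protocols. Per the submitters' processing notes, the tools were RSEM 1.3.3, STAR 2.7.8a and Trim Galore 0.6.6 and the build was mm10. For their roles, the gene annotation and any use of strand, details were not given in the sources used here. The authors deposited a table of expected counts, which are estimated counts per gene with no normalization, and a table of TPM, transcript levels per length with the same total in every library. Expected counts were rounded to whole numbers, since 92.3% to 92.6% of the values were already whole (tolerance 0). Genes were kept by edgeR's filter (count minimum 10, total minimum 15), scaled by TMM and tested with glmQLFit and glmQLFTest in edgeR 4.0.16 (R 4.3.3), two-sided, with Benjamini-Hochberg adjustment over 12244 genes. The model held genotype only. Its common biological coefficient of variation was 0.0861.

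The 59 genes, the lists and the promoter words were chosen with earlier results of these data known, so their counts and medians are descriptions and no test was made on a list. Values in every library are given for Mcm2 to Mcm7, for the 4 smallest p and the largest p of each role, for Dis3, and for the 3 smallest p in each direction of the second list (for those with negative values, as fold changes). Other genes are named with their fold change, and some with their levels, which were added after the values were seen. Counts were simulated for the same 12244 genes and 4 libraries, with 67, 67 and 66 genes changed 1.5-fold, 2-fold and 3-fold. Of these, 44.8%, 88.1% and 98.5% were recovered, in that order, with 3 false calls of 157. Every simulated gene had the same biological coefficient of variation, and 2811 genes were called in the data. The shares recovered therefore need not hold for the data. Replicates differed by more than sampling noise (chi-square per degree of freedom 3.51 and 4.11), and no column was repeated. Alternatives were DESeq2 1.42.0, RLE factors, no filter, the replicate number as a block, limma 3.58.1 on log2(TPM + 1) and log2(TPM + 0.1), a correction for gene length, and each library left out. Gene positions and promoters come from RefSeq and exon overlaps from GENCODE M21, both on GRCm38. Exons of 15 of the 59 genes share bases with a gene of the deposited tables, and not all of these overlaps are named above. The last 25 bases of 51 of 58 promoter windows were found in a transcript of their gene, and in 0 on the wrong strand. In the stem cell marker list, 1 gene is not reported here and was left out of its count and sum.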

Additional observations from a re-analysis of the deposited data

How the results depend on the processing

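With 2 libraries a genotype, a gene that was not called is not shown to be unchanged. The simulated counts set no detection limit for these data, since they gave 157 calls against 2811 in the data. Mcm6, for instance, was called at a 1.32-fold rise. Of the 42 genes that rose, 22 were called under all 11 tested alternatives, and 5 of the 17 others were called under at least 1. The number of the 59 genes called higher was 38 to 44 in every alternative but limma on unfiltered TPM, and 0 were called lower in any. Over all genes, 2811 were called by edgeR, and DESeq2 called 1000 higher and 742 lower. Limma on unfiltered TPM called 479 higher and 471 lower, and 23 of the 59 genes (6 licensing, 5 firing, 7 fork, 4 Okazaki and Mcm8), with 11 of the second list. On filtered TPM the second list had 13 higher with either pseudocount and 1 lower, Pold4. The cause was not tested. Median log2 fold changes on log2(TPM + 1), with and without the filter, and then on log2(TPM + 0.1), were 0.497 and 0.509 over the 59 genes, 0.400 and 0.405 for licensing, 0.534 and 0.555 for firing, 0.404 and 0.410 for fork, 0.549 and 0.554 for Okazaki, and 0.280 and 0.284 for the second list, where the median of all genes was -0.11. Less the median of genes of like length, the medians were 0.714 for firing, 0.420 for fork and 0.414 for the second list. With each library left out in turn, the lone library being assumed to vary like the other group, the medians ran from 0.522 to 0.635 for the 59 genes, 0.447 to 0.554 for licensing, 0.681 to 0.764 for firing, 0.510 to 0.576 for fork and 0.388 to 0.418 for the second list. 4 genes with values near 0 changed sign. Orc4 was at -0.0029 by DESeq2, -0.0026 with RLE factors, -0.235 on log2(TPM + 1) with and without the filter, -0.239 on log2(TPM + 0.1), -0.0011 after the length correction and -0.0749 to 0.0819 without single libraries. Orc5 was at -0.0933, -0.0970 and -0.0098 in the TPM and length settings and -0.164 to 0.191 without single libraries. Pole3 was at -0.160 after the length correction and -0.00868 to 0.305, and Rfc2 at -0.168 to 0.126, without single libraries. The replicate numbers are common to both genotypes by label only. Deviations of same-numbered libraries had a correlation of -0.027, so they were not treated as pairs. With the replicate block, 42 of the 59 genes were called higher and 0 lower, and no call among them changed; over all genes the block called 1463 higher and 1151 lower.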

Other observations

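Partners that act against or with each other can be read as ratios within a library, and none of those below was tested. The CPM ratio of Cdt1, the loading factor, to Gmnn, its inhibitor, was 1.84 and 1.43 in wild type, against 1.26 and 1.59 in Dis3-/-, so the genotypes overlapped. Ccne2 was at 2.83 and 1.94 times the CPM of Ccne1 in wild type, against 1.63 and 1.54 times in Dis3-/-, with both Dis3-/- libraries lower. Dbf4 was at 0.628 and 0.592 times the CPM of its kinase Cdc7 in wild type, against 0.556 and 0.517 times in Dis3-/-. Pole2 was at 0.112 and 0.103 times the CPM of Pole in wild type and at 0.0995 and 0.0803 times in Dis3-/-. Cdc6 was at 1.71 and 1.14 times the CPM of Orc1 in wild type, against 1.43 and 2.09 times in Dis3-/-, and Pola2 at 0.517 and 0.478 times that of Pola1, against 0.499 and 0.388 times. The genotypes overlapped in both, so that 3 of the 6 ratios did not overlap. In levels of single genes, 31.9% of all tested genes had both Dis3-/- libraries above both wild-type libraries and 30.5% had both below. These ratios compare a pair of genes between genotypes and, being in CPM, not the levels of the 2 genes with each other.

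Chromatin assembly behind the fork gave values that differed between partners. Chaf1a, the large subunit of chromatin assembly factor 1, was at 64.8 and 66.4 CPM in wild type and 117 and 121 CPM in Dis3-/- (0.85 ± 0.09, edgeR adjusted p = 3.79e-05). Its partner Chaf1b was at 100 and 98.1 against 99.6 and 91.3 CPM (-0.06 ± 0.09, adjusted p = 0.712). Supt16 and Ssrp1, which form the FACT histone chaperone, rose by 0.59 ± 0.08 and 0.64 ± 0.07. Dnmt1, which copies DNA methylation to the new strand, rose by 0.54 ± 0.07 and Uhrf1, which recruits it, by 0.67 ± 0.08. These genes were picked from the second list after their values were seen.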
